A study of Ovis aries with 3 samples.

Results

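The VEGF and angiopoietin signalling genes described here were *KDR*, *FLT1*, *FLT4*, *TEK*, *TIE1*, *ANGPT1*, *ANGPT2*, *VEGFA*, *VEGFB* and *VEGFC*. They were taken by gene symbol, and all 10 were present among the 26478 genes of the feature lists, of which 16670 carried a symbol. The cells were those with 200 to 6000 detected genes, 1000 to 30000 unique molecular identifiers (UMIs, each 1 counted transcript molecule) and at most 10% mitochondrial UMIs. Receptors were described in cells with at least 1 UMI of *PECAM1*, an adhesion molecule of the vessel lining, and ligands across groups of cells defined by marker genes.

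Single-cell RNA profiles were available for 3 libraries of whole sheep embryos, namely Hulunbuir short-tailed sheep at embryonic day 19 (E19 HSTS), Hu sheep at embryonic day 19 (E19 HS) and Hu sheep at embryonic day 16 (E16 HS). HSTS carried a mutation in *T*, the gene of the mesodermal transcription factor Brachyury, whereas HS carried the wild-type allele, and the genotype was determined by the authors in adult animals of both breeds. The cell suspensions of all 3 libraries had passed through red blood cell lysis before capture. Each condition was 1 library, so the spread between embryos cannot be assessed and no test between conditions was made. The E19 libraries came from 1 embryo each, while the sources differ on whether 1 embryo or 3 embryos went into the E16 HS library. Breed differences at day 19 and stage differences in HS therefore cannot be told apart from differences between embryos or libraries.

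VEGF ligands bind receptor tyrosine kinases on the endothelium, the cells that line blood and lymph vessels. *KDR* encodes the main signalling receptor for VEGFA, *FLT1* a receptor that binds VEGFA and VEGFB tightly and also acts as a decoy, and *FLT4* the receptor for VEGFC, best known in lymphatic vessels. *TEK* encodes the receptor for the angiopoietins and *TIE1* its co-receptor, with ANGPT1 known as the stabilising ligand and ANGPT2 as a context-dependent antagonist. *KDR* also marks early mesodermal progenitors of blood and endothelium.

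The libraries held 9618 (E19 HSTS), 10629 (E19 HS) and 11329 (E16 HS) kept cells, with a median depth of 8675, 6900 and 9046 UMIs per cell. Between 38 and 42 cell barcodes were shared by any pair of libraries. Erythroid cells, grouped by their markers, made up 27.1% of the cells and 45.1% of the UMIs of E19 HSTS, against 13.1% and 28.3% for E19 HS and 18.0% and 24.5% for E16 HS. Levels are given as UMIs of a gene per 1000000 UMIs of the cells named (CPM), with exact 95% Poisson intervals, while shares of cells carry exact binomial intervals and ratios exact conditional intervals. All of these cover counting error only. Where 3 values stand side by side without names, they belong to E19 HSTS, then E19 HS, then E16 HS. Libraries of this kind count the ends of transcripts without a length correction, so levels were compared between cells and libraries and not between genes. Over a sum of cells, fewer cells of a type and less RNA per cell cannot be told apart.

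Vessel cells were a small part of each embryo. *PECAM1* was detected in 186 cells of E19 HSTS (1.93%, interval 1.67 to 2.23), 303 of E19 HS (2.85%, 2.54 to 3.18) and 76 of E16 HS (0.671%, 0.529 to 0.839). The 3 intervals did not overlap, and E16 HS had the smallest share. With every cell thinned to 3000 UMIs, the shares were 1.69%, 2.43% and 0.419%, in the same order. Of the 7 other endothelial markers found by symbol (*CDH5*, *EGFL7*, *ESAM*, *CLDN5*, *EMCN*, *ERG* and *SOX18*), at least 1 was detected in 71.5%, 60.4% and 43.4% of the *PECAM1* cells, compared with 0.944%, 0.872% and 2.02% of all others. At least 3 markers of another cell type were detected in 42, 76 and 24 of the *PECAM1* cells. When all cells were clustered without the 10 member genes, 161, 264 and 43 of the *PECAM1* cells (86.6%, 87.1% and 56.6%) lay in the endothelial-like cluster, which held 169, 286 and 52 cells in all. In E16 HS, 11 more *PECAM1* cells lay in a megakaryocyte-like cluster, against 1 and 2 at E19. *PECAM1* cells of the E16 HS library were thus of more mixed identity than those at E19.

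*KDR* was detected in the majority of *PECAM1* cells of each library. Its level there was 290 CPM (266 to 316, 522 UMIs) in E19 HSTS, 286 CPM (265 to 307, 731 UMIs) in E19 HS and 260 CPM (224 to 301, 179 UMIs) in E16 HS. The 3 intervals overlapped. In cells without *PECAM1* it was 3.95, 2.49 and 4.49 CPM, which made the *PECAM1* cells 73.5, 115 and 58.0 times higher. It was found in 79.0%, 73.6% and 59.2% of the *PECAM1* cells, whose median depths were 8973, 7242 and 7920.5 UMIs. Thinned to 3000 UMIs, the shares were 47.5%, 56.1% and 40.6%, so the order of the 2 E19 libraries turned with depth. The erythroid group, with 17489, 17572 and 13765 UMIs per cell, had *KDR* in 5.37%, 2.44% and 5.80% of cells. Single *PECAM1* cells held up to 17, 14 and 24 *KDR* UMIs, and 38, 59 and 11 of them held at least 5.

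*FLT1* and *TEK* were likewise concentrated in *PECAM1* cells, with lower values at day 16. *FLT1* reached 70.0 CPM (58.3 to 83.4, 126 UMIs) in E19 HSTS, 71.9 CPM (61.9 to 83.1, 184 UMIs) in E19 HS and 43.6 CPM (29.4 to 62.3, 30 UMIs) in E16 HS. It was detected in 43.5%, 36.3% and 25% of *PECAM1* cells, or 24.3%, 21.1% and 13.0% after thinning, against 0.307%, 0.144% and 0.393% of erythroid cells. *TEK* stood at 76.1 CPM (63.9 to 90.0, 137 UMIs) in E19 HSTS, 59.4 CPM (50.3 to 69.6, 152 UMIs) in E19 HS and 36.4 CPM (23.5 to 53.7, 25 UMIs) in E16 HS. Its shares were 39.2%, 33.0% and 21.1%, or 18.1%, 15.6% and 11.6% after thinning, against 0.115%, 0.359% and 0.0983% of erythroid cells. For both receptors the 2 E19 intervals overlapped. For *FLT1* the E16 HS interval ended just above the lower bound of both E19 libraries, and for *TEK* it lay wholly below that of E19 HSTS.

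*TIE1* and *FLT4* were counted less often. *TIE1* had 35, 55 and 17 UMIs in the *PECAM1* cells, which gave 19.4 CPM (13.5 to 27.0), 21.5 CPM (16.2 to 28.0) and 24.7 CPM (14.4 to 39.6). The intervals overlapped throughout, and *TIE1* was detected in 17.2%, 16.2% and 15.8% of the cells, or in 3.95%, 10.7% and 7.25% after thinning. Among erythroid cells it was seen in 1, 2 and 1 cells. *FLT4* had 12, 13 and 2 UMIs, at 6.67, 5.08 and 2.91 CPM, each in a different cell. No erythroid cell held a *FLT4* UMI, which allows up to 0.141%, 0.264% and 0.181% of cells with a UMI and does not limit the share that express so rarely counted a gene. *PECAM1* cells held 92.3% of its 13 UMIs and 86.7% of its 15 UMIs at day 19, the largest shares among the receptors, and 40.0% of its 5 UMIs at day 16. Among all tested genes, 2.21%, 2.1% and 1.42% were at least 10-fold higher in *PECAM1* cells. *KDR*, *FLT1*, *TEK* and *TIE1* exceeded that ratio in all 3 libraries, the smallest value being 21.7 for *FLT1* in E16 HS.

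**Figure D1:**
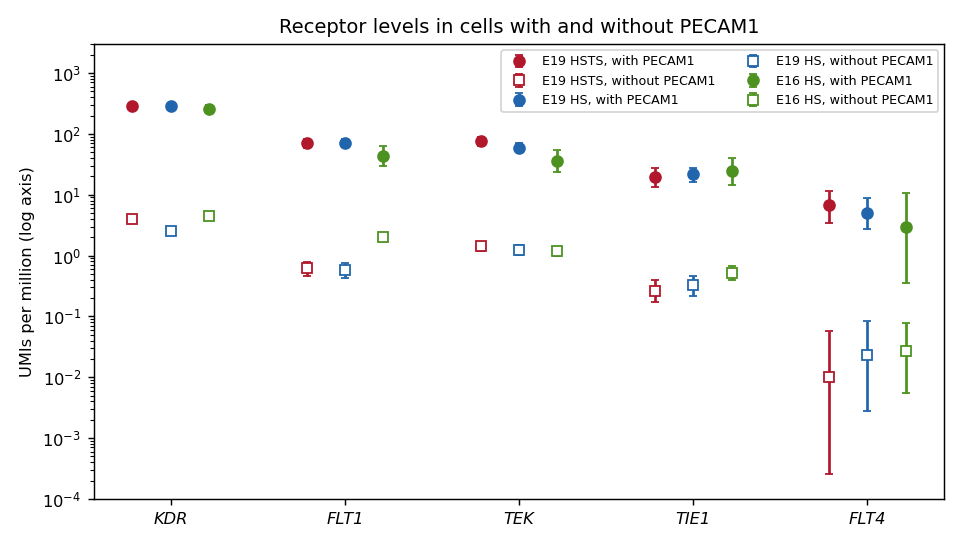
Levels of the 5 receptors (CPM, log axis) in cells with *PECAM1* (filled circles) and without it (open squares), by library, with bars for exact 95% Poisson intervals. All filled circles lie above the open squares of the same gene, and *FLT1* without *PECAM1* is highest in E16 HS.

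The receptors were seen together in many of the same cells. *KDR* and *FLT1* were both detected in 40.9% (33.7 to 48.3) of *PECAM1* cells in E19 HSTS, 32.0% (26.8 to 37.6) in E19 HS and 18.4% (10.5 to 29.0) in E16 HS. After thinning these shares were 14.1%, 15.9% and 4.35%, so that the difference between the 2 E19 libraries was not kept at equal depth. The product of the 2 shares would give 64.0, 81.0 and 11.25 cells with both, against 76, 97 and 14 counted. After thinning it would give 20.4, 34.2 and 3.65 cells, against 25, 46 and 3 counted, so E16 HS had no excess at equal depth. *PECAM1* cells also included cells outside the endothelial-like cluster, and the part of this mixture in the excess was not tested. *KDR*, present in 79.0%, 73.6% and 59.2% of all *PECAM1* cells, was present in 93.8%, 88.2% and 73.7% of the *FLT1* cells and in 95.9%, 87.0% and 100% of the *TEK* cells. All 12, 13 and 2 cells with *FLT4* also held *KDR*. No receptor was detected in 17.2%, 18.8% and 32.9% of the *PECAM1* cells, with median depths of 6647.5, 7606 and 5660 UMIs. Cells with 4 receptors numbered 14, 13 and 5, and only 1 cell, in E19 HSTS, held all 5.

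Within the endothelial-like cluster, which the members did not help to define, the day 16 receptor levels were closer to those at day 19. *KDR* there was 336 CPM (308 to 366) in E19 HSTS, 342 CPM (317 to 367) in E19 HS and 428 CPM (368 to 495) in E16 HS. *FLT1* was 81.2, 87.0 and 75.7 CPM and *TEK* 87.6, 69.5 and 59.1 CPM. The ratio of E16 HS to E19 HS was 1.25 (1.06 to 1.48) for *KDR*, 0.870 (0.578 to 1.27) for *FLT1* and 0.850 (0.533 to 1.30) for *TEK* in this cluster. In *PECAM1* cells the same ratios were 0.911 (0.770 to 1.08), 0.607 (0.398 to 0.896) and 0.612 (0.384 to 0.939). The lower *FLT1* and *TEK* of day 16 *PECAM1* cells thus went together with the smaller part of endothelial-like cells among them, and the part of this mixture in the result was not tested. *TIE1* was 23.8, 25.3 and 42.6 CPM in the cluster, a ratio of 1.68 (0.929 to 2.91) for E16 HS over E19 HS.

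*KDR* UMIs were also counted outside the *PECAM1* cells. *PECAM1* cells held 57.5%, 77.3% and 26.2% of all *KDR* UMIs, and for *FLT1* these shares were 67.7%, 78.6% and 11.7%. The largest other part of the *KDR* UMIs in E19 HSTS and E16 HS lay in the erythroid-like clusters, at 3.46 CPM (2.94 to 4.05) in E19 HSTS, 1.33 CPM (0.921 to 1.86) in E19 HS and 4.73 CPM (3.95 to 5.61) in E16 HS. The E19 HSTS level was 2.60 times (1.79 to 3.89) that of E19 HS at a like depth, and the E16 HS level 3.55 times (2.42 to 5.34). The breed difference was not particular to erythroid-like cells. Neural progenitor-like cells were likewise 2.07 times (1.34 to 3.23) and somitic-like cells 1.86 times (1.19 to 2.96) higher in HSTS. The somitic-like clusters were named from *MEOX1*, *MEOX2* and *TWIST1*, but *POSTN* and *PRRX1* were also among their leading genes. Of their 2920, 3661 and 2636 cells, 1546, 2051 and 1329 belonged to the marker group of mesenchyme. Only 272, 135 and 180 belonged to the somitic marker group, so somitic-like does not mean somite cells alone. Gut epithelium-like cells had 0.486, 0.624 and 1.96 CPM, and *KDR* RNA free in the suspension was not measured. Nearly all gut epithelium-like cells at E19 lay in a cluster led by *CXCL14*, *DLX5* and *VMO1*. Its leading genes held *CLDN7* and *CDH1* of the gut list and *TFAP2A* of the neural crest list, but not *FOXA1* or *FOXA2* of the gut list. The name gut is therefore tentative for these cells. The E19 erythroid-like cells lay mostly in clusters led by metallothionein and heat shock genes, while those of E16 HS lay in another cluster. Thinned, *KDR* was seen in 1.05%, 0.289% and 1.58% of the cells of the erythroid group. In the endothelial-like cluster there were 4.14, 3.93 and 5.66 *KDR* UMIs per *FLT1* UMI, whereas the erythroid-like clusters had 19.6 (9.72 to 46.3), 34.0 (5.70 to 1382) and 18.7 (8.83 to 47.5), with 3, 5 and 1 UMIs of *PECAM1*. The E19 HS erythroid-like value rests on 1 *FLT1* UMI. Nephric-like cells had 20.8 (7.81 to 77.9), 22.7 (7.43 to 113) and 4.00 (1.59 to 12.0) *KDR* UMIs per *FLT1* UMI. The proportion in erythroid-like cells thus differed from that in endothelial-like cells, but at E19 the intervals of erythroid-like and nephric-like cells overlapped. Whether the erythroid-like *KDR* UMIs came from free RNA was not tested.

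Nephric-like cells, named from kidney precursor markers, carried *KDR* at 15.3 CPM (12.1 to 18.9) in E19 HSTS, 13.2 CPM (10.2 to 16.7) in E19 HS and 3.82 CPM (2.45 to 5.68) in E16 HS. The 2 E19 libraries overlapped, and E16 HS was lower than E19 HS, at a ratio of 0.289 (0.174 to 0.467). Among these cells, those with *SLC12A1*, a salt transporter of the kidney tubule that was chosen after its values were seen, had *KDR* at 35.2 CPM (26.7 to 45.6, 120 cells) in E19 HSTS and 38.9 CPM (27.1 to 54.0, 80 cells) in E19 HS. The remaining nephric-like cells had 6.80 and 7.76 CPM, so the ratio was 5.17 (3.20 to 8.57) and 5.01 (3.02 to 8.31). Only 2 cells of E16 HS in this cluster held *SLC12A1*. The cells with *SLC12A1* were deeper, with medians of 12367 and 10406.5 UMIs against 8980 and 7340, but the CPM scale divides by depth. Of 381 cells gated as gut epithelium in E19 HSTS, 143 lay in the nephric-like cluster and held 69 of the 70 *KDR* UMIs of that gate, so gut epithelium was not read as a *KDR* source.

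Neural crest-like cells showed *KDR* at 15.4 CPM (8.61 to 25.4), 9.59 CPM (4.60 to 17.6) and 16.6 CPM (11.9 to 22.6). They held 15, 10 and 41 *KDR* UMIs and 0 of *FLT1*, and none of them held *PECAM1*. In E16 HS, 57 megakaryocyte-like cells had 17 *KDR* UMIs, or 56.7 CPM (33.0 to 90.8). Somitic-like cells had *KDR* at 2.46, 1.32 and 4.91 CPM, with E16 HS 3.73 times (2.50 to 5.69) as high as E19 HS. Summed over all cells without *PECAM1*, *KDR* was 1.58 times (1.34 to 1.88) as high in E19 HSTS as in E19 HS, and 1.80 times (1.53 to 2.12) as high in E16 HS.

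*FLT1* outside the vessels was mostly a day 16 feature. Cells without *PECAM1* had 0.614, 0.580 and 2.01 CPM, the last being 3.46 times (2.54 to 4.80) E19 HS, while 8.27% of the genes tested in these cells were at least 2-fold higher. In E16 HS the *FLT1* UMIs lay in somitic-like (34.8%), mesenchyme-like (31.6%) and caudal progenitor-like cells (14.1%), at 4.24 CPM (3.41 to 5.22), 3.74 CPM (2.97 to 4.64) and 3.28 CPM (2.30 to 4.55). Somitic-like cells at day 19 had 1.67 and 1.24 CPM, and their ratio of E16 HS to E19 HS was 3.43 (2.25 to 5.34). By marker gates, *FLT1* in E16 HS was 7.56 CPM (3.46 to 14.3) in caudal progenitor cells and 3.88 CPM (3.28 to 4.55) in mesenchyme cells. The somitic gate had only 0.798 CPM (0.0966 to 2.88), so the *FLT1* of somitic-like clusters was not that of somite cells alone. The mesenchyme-like and caudal progenitor-like clusters consisted mostly of E16 HS cells, so stage and cluster cannot be told apart there.

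*TEK* was also found in mesodermal cells. Somitic-like cells held 33.5%, 28.8% and 33.5% of its UMIs, at 4.04 CPM (3.25 to 4.95), 3.00 CPM (2.36 to 3.75) and 2.53 CPM (1.89 to 3.30). Mesenchyme-like cells held another 44.9% in E16 HS, at 3.27 CPM. The 68 mesenchyme-like cells of E19 HS had 13 *TEK* UMIs, or 20.0 CPM (10.6 to 34.2), and cardiomyocyte-like cells had 6.45 and 6.06 CPM in the 2 E19 libraries. In nephric-like cells *TEK* was seen with 0, 1 and 0 UMIs, unlike *KDR*.

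**Figure D2:**
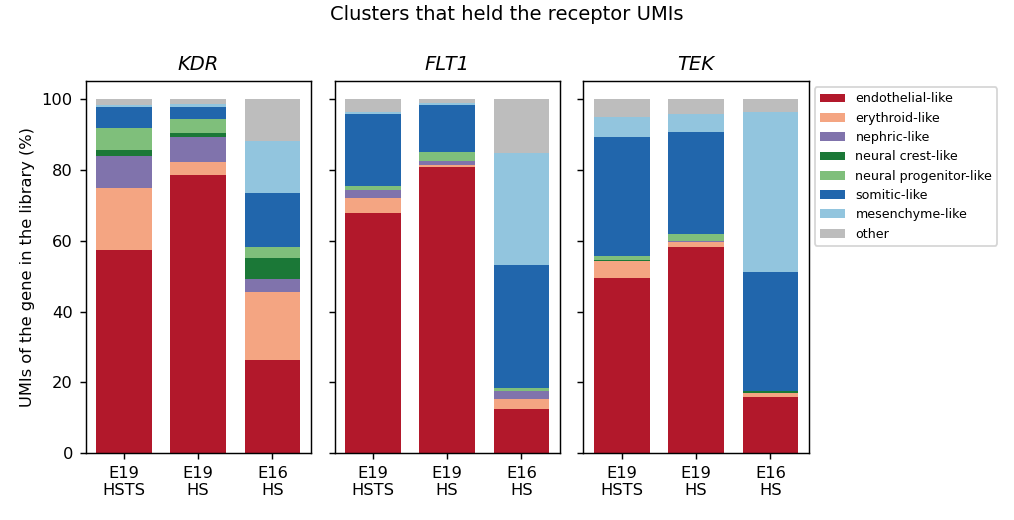
Share of the *KDR*, *FLT1* and *TEK* UMIs of each library (percent, stacked bars) by the cluster that held them. The endothelial-like part of *KDR* is 57.5%, 78.4% and 26.5% from left to right, and in E16 HS *FLT1* and *TEK* lie mostly in somitic-like and mesenchyme-like cells.

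*VEGFA*, the main driver of vessel growth, came from many tissues, with the highest level in the nephric-like cluster. Over all kept cells it was 8.14 CPM (7.59 to 8.72) in E19 HSTS, 11.3 CPM (10.6 to 12.0) in E19 HS and 10.8 CPM (10.2 to 11.4) in E16 HS. Nephric-like cells, numbering 519, 615 and 527, had 54.4 CPM (48.4 to 60.9), 61.5 CPM (54.9 to 68.7) and 49.8 CPM (44.5 to 55.7) and held 36.5%, 31.5% and 25.6% of all *VEGFA* UMIs. The cluster was led by *DCDC2*, *SLPI* and *CDH16* and held a single nephric marker, *LHX1*, and the myeloid marker *C1QA* among its 10 leading genes. Yolk sac and hepatic endoderm-like cells followed with 20.2, 16.7 and 15.2 CPM, and gut epithelium-like cells with 13.9, 15.2 and 9.41 CPM. The last value covers another mixture, since 328 of the 910 such cells of E16 HS, against 2 and 7 at E19, lay in a cluster led by *UPK3A*, with 8.19 CPM, and the other cluster had 14.0, 15.4 and 10.4 CPM. Erythroid-like cells had 1.96, 3.29 and 3.25 CPM, and endothelial-like cells 5.80, 7.83 and 7.09 CPM.

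Within the nephric-like cluster, *VEGFA* was concentrated in cells with *PTPRO*, a phosphatase of podocytes, the filter cells of the kidney. *PTPRO* was among the leading genes of the cluster and was chosen after its values were seen. The 38 such cells of E19 HSTS had 515 CPM (440 to 599, 167 UMIs), the 81 of E19 HS 315 CPM (271 to 363, 189 UMIs) and the 143 of E16 HS 157 CPM (138 to 177, 260 UMIs). The 3 intervals were apart, with the highest level in the smallest set of cells. *VEGFA* was detected in 81.6%, 77.8% and 78.3% of them, or in 53.3%, 58.1% and 36.4% after thinning, against 3.33%, 5.60% and 4.57% of the erythroid group. Nephric-like cells without *PTPRO* had 25.2, 28.1 and 11.5 CPM, so the cells with *PTPRO* were 20.4 (16.1 to 25.9), 11.2 (8.89 to 14.1) and 13.7 (10.1 to 18.7) times higher. They made up 0.395%, 0.762% and 1.26% of the kept cells and held 20.6%, 18.8% and 21.3% of all *VEGFA* UMIs. Cells with *PTPRO* outside the cluster had 11.7, 11.6 and 29.2 CPM. The nephric-like *PTPRO* cells held 0, 3 and 3 UMIs of *KDR*.

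**Figure D3:**
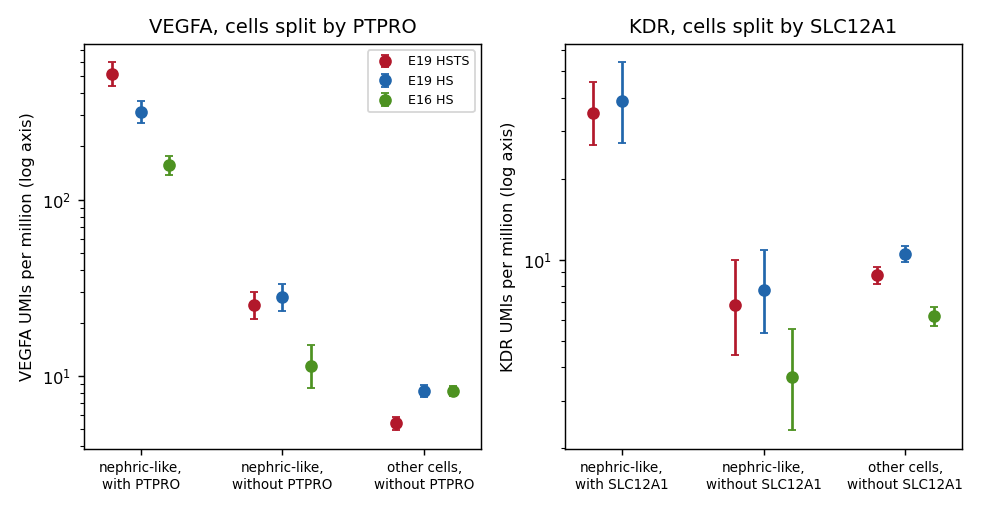
*VEGFA* in cells split by *PTPRO* (left) and *KDR* in cells split by *SLC12A1* (right), in CPM on log axes, by library with exact 95% Poisson intervals. *VEGFA* is 515, 315 and 157 CPM in nephric-like cells with *PTPRO*, and *KDR* is 35.2 and 38.9 CPM in nephric-like cells with *SLC12A1* at E19. The E16 HS library is not drawn for *SLC12A1*, which only 2 of its nephric-like cells held.

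*VEGFA* at day 16 was higher in the mesenchyme gate and lower in somitic-like cells. By marker gates, mesenchyme cells had 13.0 CPM (11.3 to 15.0) in E19 HSTS, 12.0 CPM (10.4 to 13.8) in E19 HS and 19.2 CPM (17.8 to 20.6) in E16 HS. This gate did not hold like cells at both stages, with 89.4% and 90.9% somitic-like cells at E19 against 40.4% somitic-like and 45.8% mesenchyme-like cells at E16, so stage and cluster cannot be told apart in it. The mesenchyme-like cluster, with 1515 cells in E16 HS against 42 and 68 at E19, held 41.7% of the *VEGFA* UMIs of E16 HS at 23.5 CPM (21.5 to 25.6). Somitic-like cells showed the opposite order, with 8.33 and 10.2 CPM at E19 and 5.82 CPM at E16, a ratio of 0.571 (0.456 to 0.711) for E16 HS over E19 HS. Neural progenitor-like cells likewise had 7.90 and 9.63 CPM at E19 and 4.01 CPM at E16.

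*ANGPT1*, the stabilising ligand of TEK, was highest in cardiomyocyte-like cells at E19, while somitic-like cells held the largest part of its UMIs. Cardiomyocyte-like cells had 67.2 CPM (52.7 to 84.5, 84 cells) in E19 HSTS and 64.3 CPM (48.1 to 84.1, 111 cells) in E19 HS, and E16 HS had only 28 such cells. Somitic-like cells held 56.3%, 63.0% and 48.9% of its UMIs at 21.5 CPM (19.6 to 23.5), 21.7 CPM (19.9 to 23.6) and 14.9 CPM (13.3 to 16.6). In the mesenchyme gate *ANGPT1* was 29.3 CPM (26.5 to 32.2), 29.9 CPM (27.3 to 32.6) and 11.2 CPM (10.1 to 12.3), so the 2 breeds overlapped and E16 HS was lower. The gate held mostly somitic-like cells at E19, but 45.8% mesenchyme-like and 40.4% somitic-like cells at E16, and within somitic-like cells the ratio of E16 HS to E19 HS was 0.686 (0.595 to 0.790). Early neuron-like cells had 16.4 and 16.9 CPM at E19. Neural progenitor-like cells held 82, 137 and 28 *ANGPT1* UMIs, against 73 and 53 in the cardiomyocyte-like cells of the E19 libraries. Gut epithelium-like cells differed between the E19 libraries, with 9.48 CPM (6.74 to 13.0) in E19 HSTS and 2.08 CPM (0.997 to 3.82) in E19 HS. The ratio of 4.56 (2.23 to 10.2) rests on 39 and 10 UMIs. At E19, 397 and 528 of these cells lay in the cluster led by *CXCL14* and *DLX5*, whose gut identity is tentative. Erythroid-like cells had 0.794, 0.430 and 0.361 CPM. In *PECAM1* cells *ANGPT1* was 3.33 and 2.74 CPM at E19 and 17.5 CPM in E16 HS, but 11 of the 12 UMIs in the last lay in 4 *PECAM1* cells of the myeloid-like cluster.

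*ANGPT2* was scarce, with 39, 40 and 71 UMIs in all. *PECAM1* cells held 8, 8 and 2 of them, at 4.45 CPM (1.92 to 8.76), 3.13 CPM (1.35 to 6.16) and 2.91 CPM (0.352 to 10.5). At E19 this was 14.0 and 8.42 times the level of the cells without *PECAM1*. In E16 HS, 34 of the 71 UMIs lay in mesenchyme-like cells, at 1.57 CPM (1.09 to 2.19), and 11 in nephric-like cells, at 1.75 CPM (0.874 to 3.13). In E19 HSTS gut epithelium-like cells held 12 UMIs at 2.92 CPM (1.51 to 5.09). Too few UMIs were counted to order the sources further.

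*VEGFB*, a ligand of FLT1, was spread widely across the clusters. Somitic-like cells had 49.5, 47.3 and 50.2 CPM, nephric-like cells 49.2, 51.0 and 43.5 CPM and endothelial-like cells 35.4, 33.1 and 37.8 CPM. Cardiomyocyte-like cells reached 52.5 CPM (39.8 to 68.0) and 74.0 CPM (56.6 to 95) at E19. Early neuron-like cells were lower, at 17.0 CPM (11.4 to 24.4) in E19 HSTS and 15.6 CPM (9.99 to 23.2) in E19 HS. Erythroid-like cells were lower still, with 6.50 CPM (5.78 to 7.29), 4.97 CPM (4.14 to 5.91) and 12.3 CPM (11.0 to 13.6). The level in *PECAM1* cells was 37.8, 34.8 and 39.3 CPM, between 1.04 and 1.45 times that of the other cells.

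*VEGFC*, the ligand of FLT4, had the largest part of its UMIs in the somitic-like clusters, which also held many cells of the mesenchyme gate. Somitic-like cells held 64.6%, 50% and 55.6% of its UMIs, at 5.53 CPM (4.60 to 6.58) in E19 HSTS, 3.08 CPM (2.43 to 3.84) in E19 HS and 5.96 CPM (4.96 to 7.10) in E16 HS. E19 HS was the lowest library, with a ratio of 1.80 (1.34 to 2.42) for E19 HSTS and 1.94 (1.45 to 2.61) for E16 HS over it. The 2 ratios share the E19 HS library. By marker gates, mesenchyme cells had 5.94, 3.29 and 2.88 CPM (86, 54 and 110 UMIs). Somitic cells had 6.51, 0.803 and 4.39 CPM (17, 1 and 11 UMIs), so the mesenchyme gate held more of the UMIs than the somitic gate. Neural progenitor-like cells had 2.32, 2.11 and 1.49 CPM and nephric-like cells 2.02, 2.33 and 2.23 CPM, while erythroid-like cells stood at 0.0661, 0.0783 and 0.180 CPM.

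**Figure D4:**
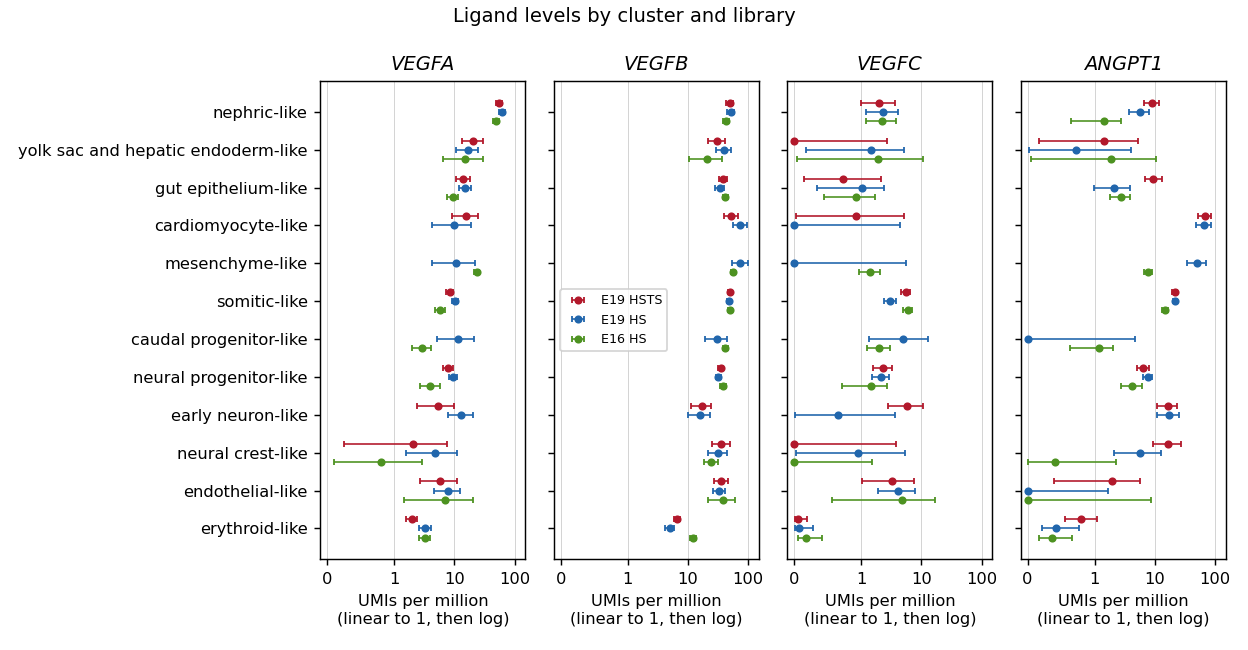
Levels of *VEGFA*, *VEGFB*, *VEGFC* and *ANGPT1* (CPM, linear to 1 and then log) by cluster and library, drawn where a library had at least 50 cells of the cluster, with exact 95% Poisson intervals. *VEGFA* is highest in nephric-like cells, *ANGPT1* in cardiomyocyte-like cells at E19, and erythroid-like cells have the lowest *VEGFB* of the clusters shown.

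Between the breeds at day 19, no tested member reached a 2-fold difference over all kept cells or in *PECAM1* cells. Within clusters, at 30 UMIs or more, *KDR* passed it in erythroid-like (2.60) and neural progenitor-like cells (2.07), and *ANGPT1* in gut epithelium-like cells (4.56). Of the 9 members with at least 30 UMIs over both libraries, 0 were at least 2-fold higher or lower in E19 HSTS than in E19 HS over all kept cells, where 4.64% of 13310 genes were. *VEGFA* had a ratio of 0.719 (0.655 to 0.790), *FLT1* of 0.708 (0.581 to 0.862), *TIE1* of 0.655 (0.463 to 0.922) and *KDR* of 0.855 (0.780 to 0.938). Without the erythroid group the ratios were 0.906 (0.821 to 1.00) for *VEGFA*, 0.888 (0.726 to 1.08) for *FLT1*, 0.862 (0.607 to 1.22) for *TIE1* and 0.962 (0.872 to 1.06) for *KDR*, and those of *ANGPT1* and *VEGFB* went from 0.899 and 0.864 to 1.15 and 1.05. *TEK* (0.942), *ANGPT2* (0.869) and *VEGFC* (1.13) had intervals that included 1 over all kept cells, whereas without the erythroid group *TEK* was 1.24 (1.04 to 1.47) and *VEGFC* 1.49 (1.20 to 1.85), both with intervals above 1. Leaving out this group moved the median log2 ratio of all genes from -0.05 to 0.21, and the ratios of all 10 members went up. A ratio of 1 was thus below the middle of all genes there. The log2 ratio without the group was 0.31 for *TEK*, near that median, and 0.57 for *VEGFC*. In *PECAM1* cells, 0 of 6 members passed, against 3.92% of 6228 genes. *KDR* there had a ratio of 1.02 (0.906 to 1.14), *FLT1* of 0.974 (0.770 to 1.23), *TIE1* of 0.905 (0.575 to 1.41) and *TEK* of 1.28 (1.01 to 1.63).

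Between the stages in HS, 1 of 9 tested members was past 2-fold over all kept cells, near the 14.9% of all genes that were. It was *TEK*, lower in E16 HS with a ratio of 0.476 (0.388 to 0.583), an interval that included 0.5. Of the members, 0 were at least 2-fold higher, while 7.28% of 13503 genes were lower and 7.6% higher. *KDR* had a ratio of 0.567 (0.513 to 0.626) and *ANGPT1* of 0.580 (0.523 to 0.643). *VEGFA* (0.952, 0.875 to 1.04) and *FLT1* (0.857, 0.715 to 1.03) had intervals that included 1, and *VEGFB* stood at 1.25 (1.19 to 1.31). The share of *PECAM1* cells was also lower, at 0.671% against 2.85%. In cells without *PECAM1* the ratio was 0.943 (0.726 to 1.23) for *TEK* and 1.80 (1.53 to 2.12) for *KDR*, and in *PECAM1* cells it was 0.612 and 0.911. *FLT1* was past 2-fold in cells without *PECAM1*, at 3.46 (2.54 to 4.80). How far the number of vessel cells accounts for the lower sums was not tested. Within *PECAM1* cells, 0 of 5 members passed, against 12.9% of 5502 genes. Both comparisons share the E19 HS library.

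**Figure D5:**
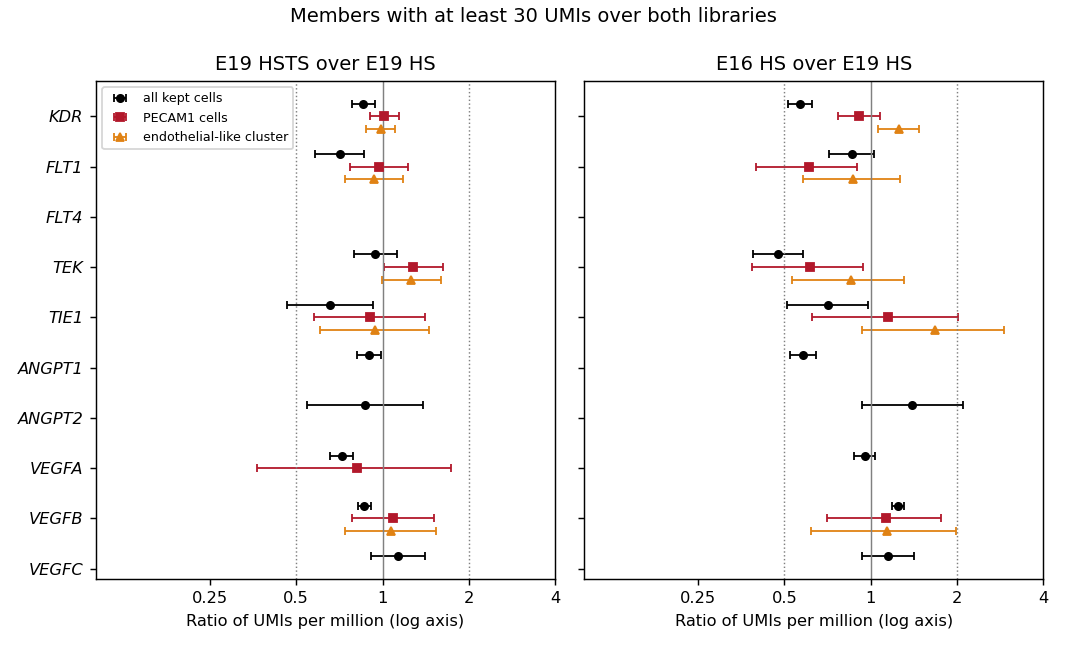
Ratios of CPM (log axis) for members with at least 30 UMIs over the 2 libraries, E19 HSTS over E19 HS (left) and E16 HS over E19 HS (right), in all kept cells, *PECAM1* cells and the endothelial-like cluster, with exact 95% intervals. Dotted lines mark 2-fold, and *TEK* over all kept cells at E16 is the point past it.

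Of 66 other genes of the pathway, 61 were found by symbol. The endothelial transcription factors were the list most often enriched in *PECAM1* cells, with 10 of 12 tested genes at least 2-fold higher in E19 HSTS, 9 of 12 in E19 HS and 9 of 10 in E16 HS, where 20.8%, 17.2% and 15.6% of all genes were. *KLF2*, a factor induced by blood flow, was 143, 201 and 30.5 CPM in *PECAM1* cells, and its ratio of E16 HS to E19 HS was 0.152 (0.0931 to 0.234). *NOS3*, the endothelial nitric oxide synthase, was 81.7, 96.5 and 45.1 CPM, a ratio of 0.467 (0.311 to 0.680) for E16 HS over E19 HS. *ESM1*, a gene of sprouting tip cells, was 319, 171 and 66.9 CPM, a ratio of 0.392 (0.283 to 0.532). Its 574, 437 and 46 UMIs lay in only 36.6%, 24.8% and 7.89% of the *PECAM1* cells. The interval does not cover such clustering of UMIs within cells. *KLF2*, *NOS3* and *ESM1* were the 3 pathway genes past 2-fold in this comparison of *PECAM1* cells, all lower at day 16, where 6.92% of all genes were. They were 1 of 9 tested endothelial factors, 1 of 6 receptor partners and 1 of 4 feedback and sprouting targets. The endothelial-like cluster held 56.6% of the *PECAM1* cells in E16 HS against 87.1% in E19 HS. The part of this mixture in the 3 ratios was not tested. *EPAS1*, a hypoxia factor of the endothelium, was the only one between the breeds, with 3.89 CPM in E19 HSTS and 8.99 CPM in E19 HS, a ratio of 0.433 whose interval of 0.157 to 1.04 included 1.

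Over all kept cells, 3 of the 11 tested genes of the hypoxia list were at least 2-fold lower in E19 HSTS than in E19 HS, against 2.75% of all genes. They were *BNIP3*, a mitophagy receptor (27.6 against 62.5 CPM, ratio 0.443, 0.423 to 0.463), *PDK1*, a kinase that holds back pyruvate oxidation (10.5 against 24.7 CPM, ratio 0.424, 0.393 to 0.457), and *ANKRD37*, with a ratio of 0.439 (0.326 to 0.588). Without the erythroid group these ratios were 0.552, 0.496 and 0.565, so that *PDK1* alone stayed past 2-fold. The median log2 ratio of that list was -0.20, against -0.05 for all genes. *KLF2* was the other pathway gene past 2-fold between the breeds (0.471, 0.409 to 0.543), and it was no longer past it without the erythroid group (0.608, 0.526 to 0.703). At day 16, 5 of 11 tested feedback and sprouting targets and 3 of 14 endothelial factors were at least 2-fold lower than in E19 HS, as were 2 of 9 receptor partners, where 7.28% of all genes were. *PECAM1* cells were 0.671% of that library against 2.85% of E19 HS, and in cells without *PECAM1* the counts were 2 of 10, 1 of 11 and 0 of 8. The 5 lowest ratios were those of *EGR3* (0.024), *CDH5* (0.115), *NOS3* (0.144), *ESM1* (0.153) and *ERG* (0.161). *NRP2*, a VEGFC co-receptor, and *SOX18*, an endothelial factor, were higher, at 2.72 (2.29 to 3.24) and 2.35 (1.02 to 6.05). The *SOX18* value did not come from vessel cells, since 0 of its 24 UMIs in E16 HS lay in *PECAM1* cells. It was detected in 1.13% of the erythroid group of E16 HS, and without that group 1 UMI was left in E16 HS and 5 in E19 HS.

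Across the 24 profiles of a marker group in a library with at least 50 cells, the genes with the most similar pattern were sought among 7409 candidates, by Pearson's r of log2(CPM + 1). The profiles share libraries and differ in depth and cell number, so r is a description. *KDR* was most like *OXCT1* (0.79), *TNFAIP8* (0.71) and *SLC12A1* (0.70), the kidney transporter used above to split the nephric-like cells. That gene was picked on the same cells, so the split and the likeness are not independent of each other. The highest *KDR* profiles were those of the gut epithelium gate at E19, with 16.5 and 11.0 CPM. Of their *KDR* UMIs, 69 of 70 in E19 HSTS and 45 of 45 in E19 HS lay in nephric-like cells. *TEK* was closest to *ACTG2* (0.90), *WNT2* (0.87) and *ZFPM2* (0.83), and *ANGPT1* to *PRKG1* (0.90), *RUNX1T1* (0.87) and *HDAC9* (0.87). *VEGFA* was closest to *FBP1* (0.88), *C1GALT1* (0.77) and *LACTB* (0.76), and *VEGFB* to *PLGRKT* (0.96), *SAMM50* (0.95) and *PPFIBP1* (0.95). *FLT1* came closest to *ADAMTS12* (0.81), *ARHGAP31* (0.80) and *HEBP2* (0.75), *TIE1* to *CD151* (0.88), *PDLIM3* (0.82) and *TCF21* (0.82), and *VEGFC* to *ZNF521*, *ANKRD54* and *NAA16* (all 0.80). The endothelial gate reached 50 cells in no library, so these profiles hold no vessel group. *FLT4* and *ANGPT2* had under 200 UMIs and were left out. That limit counted all kept cells, and *TIE1* passed it with 219 UMIs. Its mesenchyme profiles held only 11, 14 and 29 UMIs and no profile was above 2.37 CPM, so its likeness rests on few counts. *FLT1* and *VEGFC* also had profiles of few counts. Those of the gut epithelium gate held 3, 1 and 3 UMIs of *FLT1* and 4, 2 and 5 of *VEGFC*.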

How the data were processed

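Single-cell 3' RNA libraries of whole embryos were analysed, 1 library for each breed at day 19 and 1 for HS at day 16. The authors aligned reads to Ovis_aries_genome_v1.0 with Cell Ranger 6.1.2 and deposited raw UMI counts per gene and called cell, which were used here unscaled. No doublets were removed, since Scrublet marked 193, 0 and 198 cells, and leaving out the cells with the top 8% of doublet scores was an alternative.

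Kept cells were grouped by 18 lists of 8 markers each: a cell joined the list with most markers detected, at least 3, with ties unassigned. Groups and clusters of at least 50 cells in a library were printed. Of the markers, 10 were not found by symbol, as were 5 pathway genes, and MYF6 had a repeated symbol. Clusters were made in Seurat 5.3.0 (R 4.3.3) without the members and named from the same lists. Intervals, thinning (seed 1) and ratios were computed with pandas 2.3.3, scipy 1.17.1 and numpy 2.4.6 under Python 3.11.15. A gene counted as past 2-fold at a ratio of at least 2 or at most 0.5 with at least 30 UMIs over both libraries. All members are named, with other pathway genes past 2-fold, at most 5 per direction and comparison, and the 3 genes most like each member. The members and lists were chosen with earlier results of these data known. Alternatives were TMM scaling (edgeR 4.0.16), thinning, other filters and gates, and leaving out the erythroid group. The ratio computation was tested on simulated independent Poisson counts, which leave out any clustering of UMIs within cells. That test therefore does not show that the intervals hold for such clustered counts.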

Additional observations from a re-analysis of the deposited data

How the results depend on the processing

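No paired analysis was possible because each condition was 1 library, so no replicate could be left out either. Of 236 values of 29 member ratios under the alternatives, 229 stayed on the same side of 2-fold, 1 left it, 6 passed it and 0 turned direction. The count past 2-fold between the breeds, 0 over all kept cells and 0 in *PECAM1* cells, became 1 in each with cells thinned to 3000 UMIs (*TIE1*, lower). Between the stages it was 1 over all kept cells, 0 without the cells of highest doublet score, 2 after thinning, with TMM or without the erythroid group (*KDR* and *TEK*), and 2 with a minimum of 1 UMI (*FLT4* and *TEK*). In *PECAM1* cells it went from 0 to 1 after thinning (*FLT1*, lower) and to 1 with a minimum of 1 UMI (*ANGPT1*, higher). *KDR* in vessel cells of E19 HSTS went from 290 to 259 CPM with stricter cell filters, 338 without high doublet scores, 330 with at least 2 *PECAM1* UMIs, 451 in the endothelial gate (22 cells) and 336 in the endothelial-like cluster, the last chosen after seeing the data. In E19 HS it went from 286 to 235, 340, 335, 413 (23 cells) and 342 under the same settings and to 386 after thinning, and in E16 HS from 260 to 413 with at least 2 *PECAM1* UMIs and 428 in the cluster. The endothelial gate held 0 cells of E16 HS and gave no value there. Joint detection of *KDR* and *FLT1* went from 40.9% to 14.1% after thinning and 54.5% in the endothelial gate in E19 HSTS, from 32.0% to 15.9% and 52.2% in E19 HS, and from 18.4% to 4.35% after thinning and 32.7% in the cluster in E16 HS. *VEGFA* in mesenchyme went from 13.0 to 11.2 CPM after thinning in E19 HSTS and from 19.2 to 17.5 after thinning and 23.5 in the cluster in E16 HS, and *ANGPT1* from 29.9 to 49.2 in the cluster in E19 HS and from 11.2 to 14.5 after thinning and 7.79 in the cluster in E16 HS. The causes were not tested beyond the cells each setting removes. TMM moved the median log2 ratio of all genes from 0.22 to 0.01 between the stages and the genes past 2-fold from 1026 higher and 983 lower to 677 and 1283. In *PECAM1* cells TMM moved this split from 123 and 121 to 82 and 162 between the breeds and from 329 and 381 to 184 and 532 between the stages. Depth limits *FLT4* and *ANGPT2* most, with 33 and 150 UMIs over the 3 libraries.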
